A study of Mus musculus with 2 samples.

Results

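Antigen presentation by MHC class I was followed through 10 genes of the 27998 in the count tables. They were taken by symbol: the chains *H2-K1*, *H2-D1* and *B2m*, the peptide loading genes *Tap1*, *Tap2* and *Tapbp*, the immunoproteasome genes *Psmb8*, *Psmb9* and *Psmb10*, and the transactivator gene *Nlrc5*. Each symbol matched exactly 1 row, so all 10 were found in both libraries. The sc-RNASeq data were made from ileal enterocyte preparations of C57BL/6 mice aged 8 weeks, and the design compares cell populations of wild-type (WT) mice with those of mice lacking TNFAIP8 (TNFAIP8-/-, written Tipe0-/- here). The knockout is in the whole animal, no treatment separates the groups, and 1 library was deposited per genotype with no map from cells to mice. Differences between mice can therefore not be separated from differences between genotypes, and no test between the genotypes is possible.

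Class I molecules sit on nearly all nucleated cells, where a heavy chain held by β2-microglobulin displays short peptides cut from the cell's own proteins. The proteasome cuts them, the TAP transporter moves them into the endoplasmic reticulum, and tapasin helps to load them, while interferon γ exchanges the catalytic subunits of the proteasome for the inducible ones and raises NLRC5, a nuclear activator of class I genes. In the intestinal epithelium the display is read by CD8+ intraepithelial lymphocytes.

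The WT library held 3402 cells and 38127808 unique molecular identifiers (UMIs), each standing for 1 captured mRNA molecule, and the Tipe0-/- library 2006 cells and 23897126 UMIs. Median depth was 7760 and 7307.5 UMIs per cell, and mitochondrial genes took 6.59% and 8.56% of the UMIs. *Tnfaip8* itself was at 9.76 UMIs per 1000000 in WT (372 UMIs) and 2.39 in Tipe0-/- (57 UMIs), so it was lower but not absent in the library labelled as the knockout. The libraries share 9 cell barcodes. Cells fell into 13 clusters, which were grouped by marker genes into 7 named classes and 1 unnamed cluster led by *Lrg1*, *Akr1c19* and gasdermin C genes. T and NK cell markers were higher in WT: the 12 of 14 listed genes found in the tables summed to 166 UMIs per 1000000 in WT and 41.6 in Tipe0-/-, with none of the 12 at 0 in either library. The 6 of 7 B cell markers found summed to 32.5 and 16.3 per 1000000.

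The genes lie on 3 chromosomes of the mouse genome (GRCm38, GENCODE annotation). On chromosome 17, in and around the MHC, are *Tapbp* (chr17:33915899-33929292, plus strand), *H2-K1* (chr17:33996017-34000347, minus), *Psmb9* (chr17:34181987-34187764, minus), *Tap1* (chr17:34187553-34197225, plus), *Psmb8* (chr17:34197721-34201454, plus), *Tap2* (chr17:34203527-34216321, plus) and *H2-D1* (chr17:35262730-35267499, plus). *Psmb9* and *Tap1* overlap by 212 bases at their 5′ ends on opposite strands. *B2m* is at chr2:122147686-122153083 (plus), and chromosome 8 carries *Nlrc5* (chr8:94434356-94527272, plus) and *Psmb10* (chr8:105935735-105938444, minus).

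Promoter sequence was at hand for 8 of the 10 genes (RefSeq, GRCm38.p6), and the stretches below are shown because the chains share short motifs there that the other members carry in part. Letters in capitals mark motif matches on either strand. These are the interferon element cores GAANNGAAA and GAAANNGAA, an NF-κB pattern (GGG and CC with any 5 bases between them), CCAAT for NF-Y, and TGACGC, a core bound by CREB and ATF factors. The *H2-K1* stretch is chr17:34000353-34000482 on the minus strand, from 135 to 6 bases before the start of transcription. The *H2-D1* stretch is chr17:35262923-35262952 on the plus strand, from 171 to 142 bases before the RefSeq start, in a window that lies within an exon of an annotated *H2-D1* transcript with an earlier start. The stretch for *B2m* is chr2:122147537-122147656 on the plus strand, from 150 to 31 bases before its start.
H2-K1: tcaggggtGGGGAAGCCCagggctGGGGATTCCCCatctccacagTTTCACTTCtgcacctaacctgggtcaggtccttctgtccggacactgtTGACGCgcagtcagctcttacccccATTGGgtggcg
H2-D1: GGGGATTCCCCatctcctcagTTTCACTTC
B2m: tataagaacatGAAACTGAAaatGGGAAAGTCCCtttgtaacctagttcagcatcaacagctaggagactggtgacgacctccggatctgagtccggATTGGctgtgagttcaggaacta

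The *H2-D1* window matches the printed *H2-K1* stretch at 119 of 130 bases (91.5%) without gaps. In the 30 bases shown for *H2-D1* both genes match at 29. GAANNGAAA was found in the 250 bases upstream of *H2-K1* and *H2-D1* and in no other of the 8 windows, against 6.31% of all 32851 windows in the table. GAAANNGAA was found upstream of *B2m* alone among them (7.13% of all windows). This spelling was added after the promoters were seen, and it can overlap GAANNGAAA but did not here. TGACGC was present for *H2-K1* and *H2-D1* (6.12% of all windows), and TGACGT for none of the 8 (6.47%). The NF-κB pattern was present for 5 of 8 and CCAAT for 6 of 8, but both are common, in 45.8% and 33.8% of all windows. The STAT pattern TTCNNNGAA, which reads the same on both strands, was found upstream of *Psmb8* alone (7.02%). The RefSeq starts of *Psmb9* and *Tap1* are separated by only 225 bases, so their windows overlap and the NF-κB and CCAAT matches within them are counted for both genes. The RefSeq starts used for *Tapbp*, *Psmb8* and *Psmb9* lie 3579, 474 and 434 bases from the 5′ end of the annotated gene. The absence of a motif in their windows does not cover the sequence before that end. A match is a string of letters and says nothing of binding.

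All 10 genes were lower in the Tipe0-/- library than in the WT library. Their log2 ratios (Tipe0-/- over WT, of UMIs per 1000000 with 0.5 UMI added to each sum) ran from -1.27 for *Psmb8* to -0.30 for *Tapbp*, with a median of -0.68. For comparison, 11665 genes reached 50 UMIs when both libraries were added. Their median was 0.15, and 30.7% of them were below 0. Relative to that shift the members lay 0.45 to 1.42 lower on the log2 scale. The interval of each of the 10 ratios was below 0, a count that was not made over all genes. All intervals given are exact 95% intervals that cover counting error only, and differences between mice are not part of them. In these sums fewer cells of a type and less RNA per cell cannot be told apart, which is why cell classes are taken separately further on.

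At least 1.5-fold lower were 5 of the 10 genes (*H2-D1*, *Tap1*, *Psmb8*, *Psmb9* and *Nlrc5*), against 5.06% of the 11665 genes. At the looser limit of a ratio of 4 to 5 it was 9 of 10 against 9.09% of genes, and at a fold of 2 it was 3 of 10 (*Tap1*, *Psmb8* and *Nlrc5*) against 2.43%. None was at least 1.5-fold higher, against 8.62% of the genes.

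**Figure D1:**
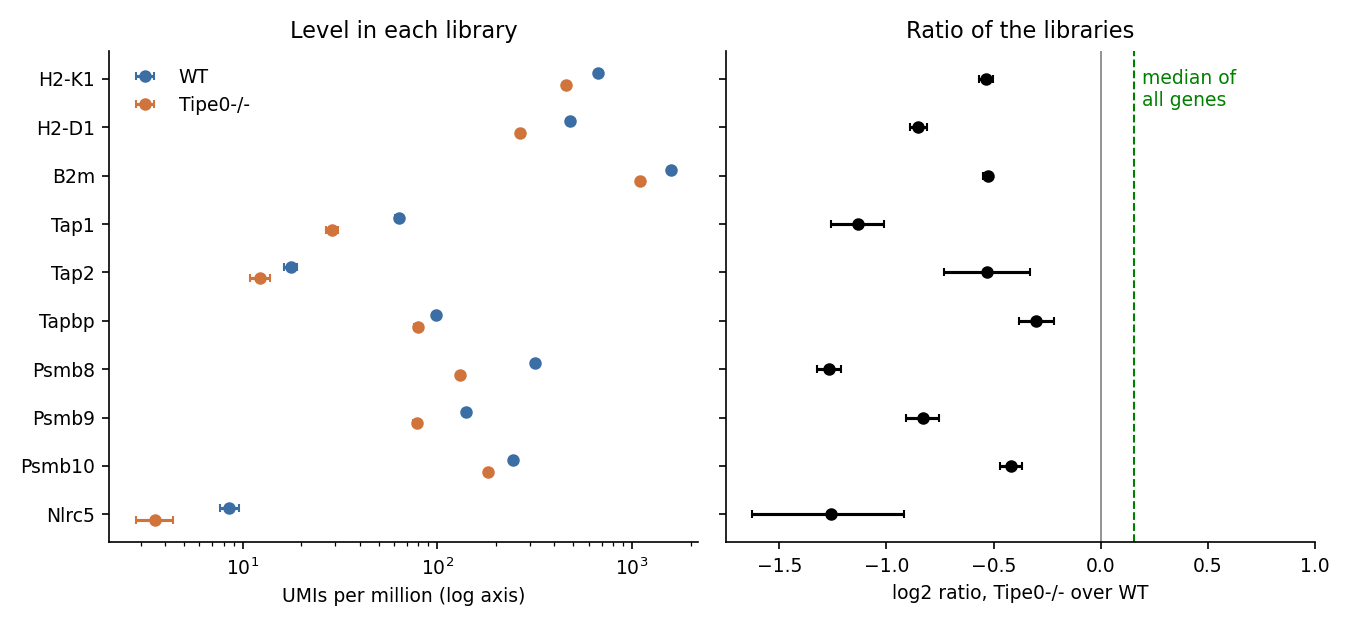
Left, UMIs per 1000000 of each gene in the WT and the Tipe0-/- library (log axis, points with exact 95% Poisson intervals). Right, log2 ratio with its exact 95% interval from the counts. All 10 points lie left of 0 and of the dashed line at 0.15, the median of all genes. *Psmb8*, *Nlrc5* and *Tap1* lie farthest left.

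*H2-K1* and *H2-D1* encode the classical heavy chains of this strain. *H2-K1* had 25423 UMIs in WT, or 667 per 1000000 (659 to 675). In Tipe0-/- it had 10999, or 460.3 per 1000000 (452 to 469), a log2 ratio of -0.53 (-0.57 to -0.50). *H2-D1* had 18288 UMIs in WT, or 479.7 per 1000000 (473 to 487). In Tipe0-/- it had 6355, or 266 per 1000000 (259 to 273), a log2 ratio of -0.85 (-0.89 to -0.81). The ratio was lower for *H2-D1* than for *H2-K1* in 13 of 13 clusters. Both belong to a family of near-identical genes, and how the counting split reads among copies is not known, so the division of counts between them is uncertain. *B2m*, the light chain common to all class I molecules, was the most abundant member with 60468 UMIs in WT (1586 per 1000000, 1573 to 1599) against 26298 in Tipe0-/- (1100.5 per 1000000, 1087 to 1114). Its log2 ratio was -0.53 (-0.55 to -0.51), close to that of *H2-K1*. 

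*Tap1* and *Tap2* encode the subunits of the peptide transporter, and *Tapbp* encodes tapasin, which holds an empty class I molecule at that transporter. *Tap1* had 2412 UMIs in WT (63.3 per 1000000, 60.8 to 65.8) against 689 in Tipe0-/- (28.8 per 1000000, 26.7 to 31.1), a log2 ratio of -1.13 (-1.26 to -1.01). *Tap2* had 675 and 293 UMIs, or 17.7 (16.4 to 19.1) and 12.3 per 1000000 (10.9 to 13.7), a log2 ratio of -0.53 (-0.73 to -0.33). *Tapbp* had 3737 and 1903 UMIs, or 98.0 (94.9 to 101.2) and 79.6 per 1000000 (76.1 to 83.3), a log2 ratio of -0.30 (-0.38 to -0.22). The ratios of the transporter subunits differed: the intervals of *Tap1* and *Tap2* do not overlap, and *Tap1* had the lower ratio in most of the 13 clusters. The exceptions were the Paneth-like cluster, with both at -0.78, and the lymphocyte-like cluster, with *Tap1* at 0.63 and *Tap2* at 0.33 on few UMIs. The ratio of *Tap2* moved to -0.22 when all cells were brought down to 3000 UMIs each. In the GENCODE annotation *Tapbp* shares 3422 bases with *Zbtb22* on the same strand. They lie at the upstream end of *Tapbp*, while the kit reads the downstream end of transcripts. Reads from the shared bases cannot be assigned to either gene if the counting used such an annotation, and their part in the counts was not tested.

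*Psmb8*, *Psmb9* and *Psmb10* encode the inducible catalytic subunits of the proteasome, which replace *Psmb5*, *Psmb6* and *Psmb7* products. *Psmb8* had 12062 UMIs in WT (316 per 1000000, 311 to 322) against 3139 in Tipe0-/- (131 per 1000000, 127 to 136), a log2 ratio of -1.27 (-1.33 to -1.21), or 2.41-fold lower. *Psmb9* had 5339 and 1881 UMIs, or 140.03 (136 to 144) and 78.7 per 1000000 (75.2 to 82.4), a log2 ratio of -0.83 (-0.91 to -0.75). *Psmb10* had 9296 and 4361 UMIs, or 244 (239 to 249) and 182 per 1000000 (177 to 188), a log2 ratio of -0.42 (-0.47 to -0.37). The order *Psmb8*, *Psmb9*, *Psmb10* held in most clusters: *Psmb8* had a lower ratio than *Psmb10* in 13 of 13 clusters and a lower one than *Psmb9* in 11, and *Psmb9* was below *Psmb10* in 12.

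*Nlrc5*, the activator of class I promoters, was the scarcest member. It had 326 UMIs in WT (8.55 per 1000000, 7.65 to 9.53) against 85 in Tipe0-/- (3.56 per 1000000, 2.84 to 4.398), a log2 ratio of -1.26 (-1.63 to -0.92). Its interval is the widest of the 10 and overlaps those of *Tap1* and *Psmb8*.

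The constitutive subunits give each inducible one a reference within the same cells. *Psmb5* had a log2 ratio of -0.31 (-0.37 to -0.26), *Psmb6* of -0.07 (-0.12 to -0.03) and *Psmb7* of -0.23 (-0.30 to -0.16). *Psmb8* made up 61.5% of the UMIs of *Psmb8* and *Psmb5* together in WT (60.8 to 62.2%) and 45.2% in Tipe0-/- (44.0 to 46.4%). *Psmb9* made up 32.5% of its pair with *Psmb6* in WT (31.8 to 33.3%) and 22.2% in Tipe0-/- (21.3 to 23.1%). The pair of *Psmb10* and *Psmb7* differed little, with 65.7% in WT (64.9 to 66.5%) and 62.7% in Tipe0-/- (61.5 to 63.8%). Over the 3 pairs the inducible share was 53.2% in WT and 41.9% in Tipe0-/-, 11.3 percentage points lower.

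The inducible share was lower in Tipe0-/- in all 8 classes for *Psmb8*, by 11.1 to 19.8 percentage points, and in all 8 for *Psmb9*, by up to 14.4 points. The intervals of the libraries did not overlap in 7 and 6 of the 8 classes, respectively. For *Psmb10* they overlapped in every class. In enterocyte-like cells, the absorptive cells, *Psmb10* made up 73.4% of its pair in WT and 73.6% in Tipe0-/-, while *Psmb8* went from 70.1% to 59.0% in the same cells. These shares are independent of the scaling of the libraries, since both genes of a pair come from the same cells.

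**Figure D2:**
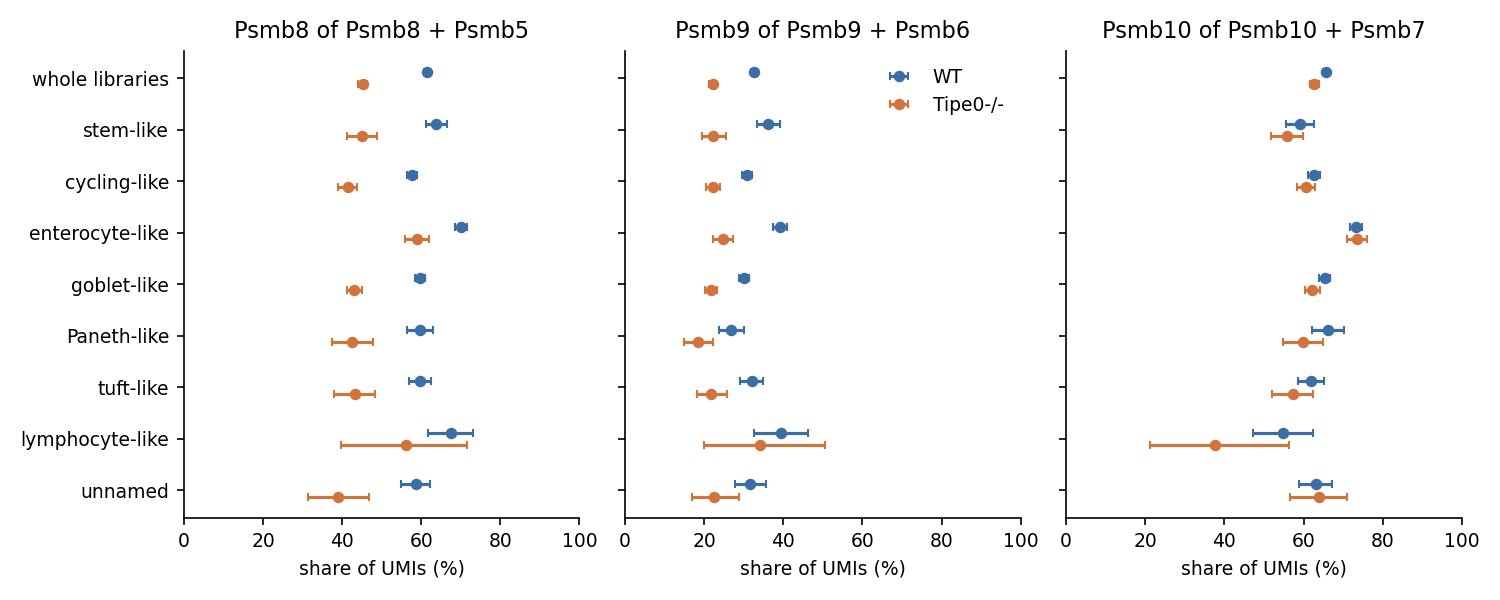
Share of UMIs (%) taken by the inducible subunit within each pair of catalytic subunits, in whole libraries and in 8 cell classes, with exact 95% Clopper-Pearson intervals. WT and Tipe0-/- stand apart for *Psmb8* and *Psmb9* in most classes and overlap for *Psmb10* in each class, though not in whole libraries. The lymphocyte-like class has 16 Tipe0-/- cells and the widest intervals.

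Cell types differed in how much of the pathway they expressed. Levels by class are given per 1000000 UMIs of that class, and the orders are those of WT unless Tipe0-/- is named. Enterocyte-like cells (944 WT and 463 Tipe0-/- cells) had the highest level of all 3 chains and all 3 loading genes, though for *Tap1* and *Tap2* their interval overlaps that of the next class. *B2m* reached 2962 per 1000000 there (2925 to 2999), against 1347 to 1583 in 6 other classes and 401 in Paneth-like cells. *H2-D1* was at 798 per 1000000 in enterocyte-like and 696 in tuft-like cells, whose intervals do not overlap each other or the 479 of goblet-like cells. From goblet-like cells down to the unnamed cluster, each class overlapped its neighbour in the order for *H2-D1*. The enterocyte-like class pools unlike clusters. Its WT level of *H2-K1* was 1570 in the cluster led by *Apoa4*, 857 in that led by *Arg2* and 603 in that led by *Cldn8*. Goblet-like clusters were at 622, 870 and 949, so the high level of the class does not hold in each of its clusters.

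The immunoproteasome followed another order. *Psmb8* was highest in cycling-like cells at 439 per 1000000 (424 to 455), overlapping the unnamed cluster at 426 (387 to 468), and was lower in enterocyte-like cells at 322 (310.1 to 335). *Psmb9* likewise was at 192 per 1000000 in cycling-like and 147 in enterocyte-like cells. *Psmb10* was highest in the unnamed cluster at 341 and in cycling-like cells at 327, which do not differ beyond their intervals. Summed over the 3 genes, cycling-like cells held 958 UMIs per 1000000 (936 to 981), the unnamed cluster 948 (889 to 1010) and enterocyte-like cells 750.4 (732 to 769). For the chains the order was the opposite, with 2403 per 1000000 in cycling-like and 4841 in enterocyte-like cells. In Tipe0-/- the immunoproteasome sums of these classes were closer, at 497 (476 to 518) and 453 (432 to 475), whose intervals just do not overlap, and *Psmb8* was at 161 and 163, whose intervals do. Lymphocyte-like cells had the highest Tipe0-/- level of *Psmb8*, *Psmb9*, *Tap1*, *Tap2* and *Nlrc5*, on 3 to 23 UMIs each, with intervals that overlap the next class. The chains were highest in enterocyte-like cells in Tipe0-/- too.

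Paneth-like cells, which secrete antimicrobial peptides at the crypt base, had the lowest level of 9 of the 10 genes. The sum of the members was 1039 UMIs per 1000000 in their 282 WT cells, against 3456 to 5901 in the other classes. *Nlrc5* was lowest in the unnamed cluster, with 2 UMIs in WT, an interval that overlaps that of Paneth-like cells. These cells are deep, with a median of 20981.5 UMIs per WT cell, and Paneth marker genes alone took 10.2% of their UMIs. In UMIs per cell the difference was smaller: 24.7 member UMIs per Paneth-like WT cell compare with 28.8 per stem-like, 18.5 per lymphocyte-like and 52.1 per enterocyte-like cell. The part of the Paneth transcripts in the low level was not tested.

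*Nlrc5* was found at 21.1 per 1000000 in lymphocyte-like cells (10 UMIs, 10.1 to 38.8), 15.2 in stem-like (38 UMIs, 10.7 to 20.8) and 14.4 in enterocyte-like cells (120 UMIs, 11.9 to 17.2). These 3 do not differ beyond their intervals. Goblet-like cells were at 8.01 and cycling-like cells at 5.68 per 1000000, so the class with the highest immunoproteasome level was not among those with the most *Nlrc5*.

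**Figure D3:**
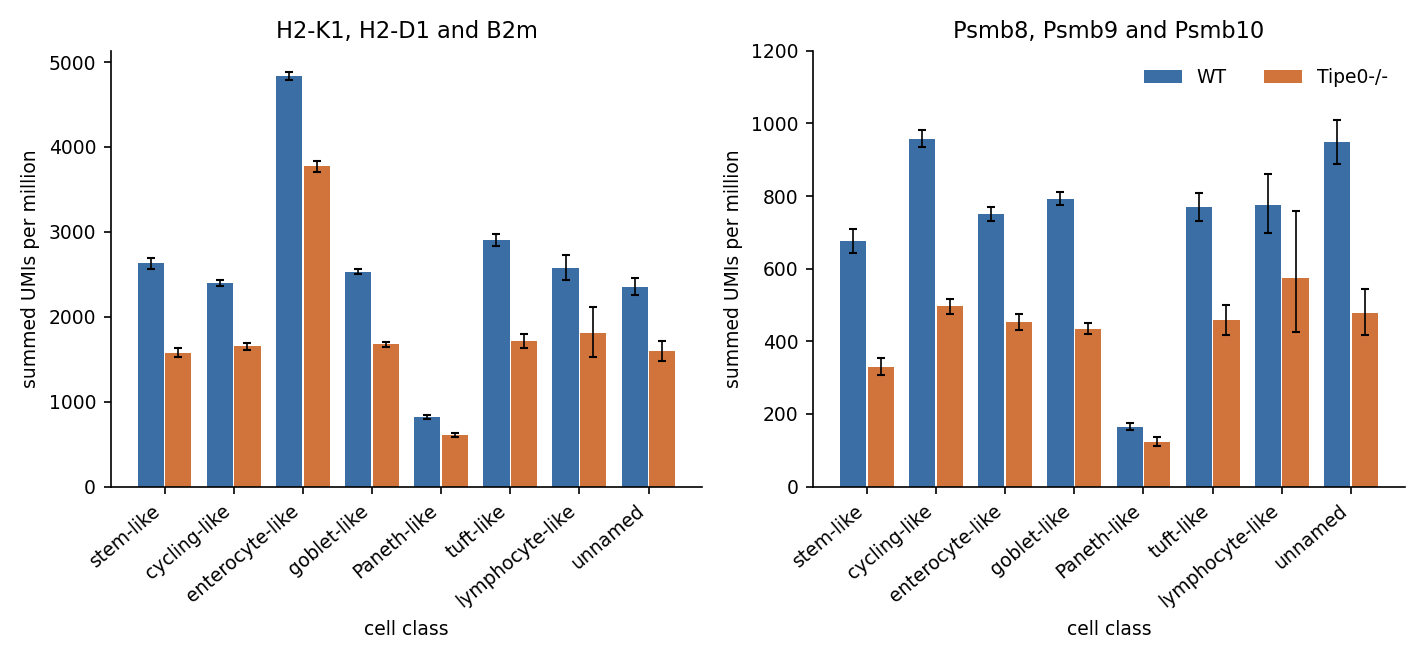
Summed UMIs per 1000000 of the 3 chains (left) and the 3 immunoproteasome genes (right) in 8 cell classes of WT and Tipe0-/- (bars from 0, exact 95% Poisson intervals). Chains are highest in enterocyte-like cells of both libraries. The immunoproteasome is highest in cycling-like cells and the unnamed cluster in WT and in the 16 lymphocyte-like cells, with a wide interval, in Tipe0-/-, and Paneth-like cells are lowest in both panels. Each WT bar exceeds its Tipe0-/- bar.

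Within classes the members were again lower in Tipe0-/-. Of the 80 values for 10 genes in 8 classes, 73 were below 0 and 7 above. The interval lay below 0 for 60 of them and above 0 for none. Such intervals were not counted over all genes, so this count has no background, and abundant genes have narrow intervals. By the ratio alone, of all genes with at least 50 UMIs in a class, 34.1% to 56.0% were below 0 in 7 of the classes and 9.38% in Paneth-like cells. *H2-K1*, *H2-D1*, *B2m*, *Psmb8* and *Psmb9* were lower in all 8 classes, though *Psmb9* in lymphocyte-like cells only by -0.02 with an interval from -0.99 to 0.77. Of the 7 values above 0, 4 belong to lymphocyte-like cells (*Tap1*, *Tap2*, *Tapbp* and *Nlrc5*), 2 to Paneth-like cells (*Tapbp* and *Psmb10*) and 1 to the unnamed cluster (*Tapbp*).

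**Figure D4:**
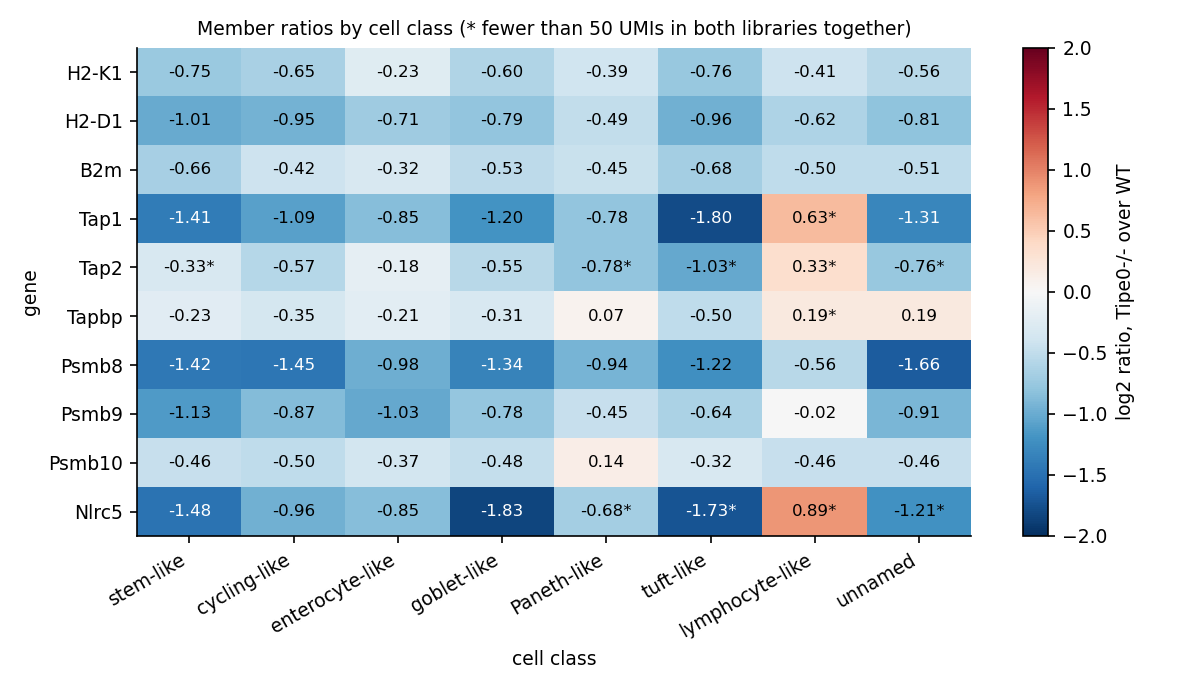
Log2 ratio (Tipe0-/- over WT) of each gene in each cell class, with lower values in blue and higher ones in red. An asterisk marks fewer than 50 UMIs in both libraries together. Blue fills the columns of stem-like, cycling-like, enterocyte-like, goblet-like and tuft-like cells, and the few red fields lie in the lymphocyte-like, Paneth-like and unnamed columns.

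Stem-like cells, led by *Lgr5* and *Olfm4*, had a median of the members of -0.88, against 0.04 for all genes of that class. Here and in the classes below, the median of the members takes all 10, also those under 50 UMIs. The median of all genes takes only genes with at least 50. Over the 9 members that reach 50 UMIs in stem-like cells it was -1.01. *Psmb8* went from 339 to 126 per 1000000 there (log2 ratio -1.42, -1.62 to -1.24) and *H2-D1* from 453 to 224 (-1.01, -1.16 to -0.87). Of the 9 members with at least 50 UMIs, 7 were at least 1.5-fold lower, against 3.93% of genes. In cycling-like cells the median was -0.76 and 6 of 10 were past the fold, against 2.98% of genes, with *Psmb8* going from 439 to 161 per 1000000 (-1.45, -1.57 to -1.33).

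Enterocyte-like cells had a median of -0.54, against 0.15 for all genes, and 5 of 10 members past the fold, against 3.59%. *H2-K1* went from 1081 to 919 per 1000000, a log2 ratio of -0.23 (-0.29 to -0.18) that is the smallest of this gene in any class. This class value pools unlike clusters. The ratio of *H2-K1* was -0.06 in the largest enterocyte-like cluster, led by *Apoa4*, with an interval that includes 0 (-0.13 to 0.01). It was -0.66 and -0.35 in the others. *Psmb9* went from 147 to 71.8 per 1000000 (-1.03, -1.23 to -0.84) in enterocyte-like cells as a whole. At the finer resolution of 1.6 the mature enterocytes separated by library, with 364 WT and 58 Tipe0-/- cells in the largest cluster and 9 and 136 in another. The sum of the members was lower in Tipe0-/- in each of the 5 enterocyte-like clusters of that setting, by log2 ratios from -0.85 to -0.39. The -0.39 is from the cluster with 9 WT cells, at 9493 per 1000000 in WT and 7256 in Tipe0-/-. The largest cluster was at 7493 in its 364 WT cells and 5312 in its 58 Tipe0-/- cells. The 364 WT and the 136 Tipe0-/- cells were thus at similar levels, and cluster and library cannot be fully told apart there.

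Goblet-like cells, the mucus secreting lineage with its progenitors, had a median of -0.69 and 6 of 10 past the fold, against 3.37%. *Nlrc5* had 77 UMIs in WT and 17 in Tipe0-/- goblet-like cells, a log2 ratio of -1.83 (-2.71 to -1.09). Tuft-like cells, a chemosensory type, had a median of -0.86, or -0.72 over the 8 members with at least 50 UMIs. Of those 8, 6 were past the fold, against 8.81% of genes. Depth differed in this class, with a mean of 13353 UMIs per cell in 156 WT and 20505 in 51 Tipe0-/- cells. In UMIs per cell the difference was smaller, with 51.9 member UMIs in WT and 46.7 in Tipe0-/-. The part of depth in the tuft-like ratios was not tested. *Tap1* went from 81.1 to 22.9 per 1000000 in tuft-like cells (169 and 24 UMIs), a log2 ratio of -1.80 (-2.50 to -1.20). The unnamed cluster had 4 of 8 past the fold, against 6.94%.

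Paneth-like cells differed in scale: the median of all genes was 0.48 in this class. Of the 8 members with at least 50 UMIs, 2 (*Tap1* and *Psmb8*) were past the fold, against 1.37% of genes. *Psmb8* went from 79.5 to 41.5 per 1000000 (-0.94, -1.21 to -0.68). *Psmb10* was at 53.9 and 59.1 per 1000000, a log2 ratio of 0.14 (-0.11 to 0.38). All 10 members lay below the class median.

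The lymphocyte-like cluster held 91 WT and 16 Tipe0-/- cells, and though it carried 12 of the 14 T and NK cell markers, its leading genes were B cell genes. Of the 6 members with at least 50 UMIs there, 1 (*H2-D1*) was past the fold, against 14.9% of genes. *B2m* went from 1583 to 1114 per 1000000 (-0.50, -0.83 to -0.20). *Tap1* had 30 UMIs in WT and 8 in Tipe0-/-, or 63.3 and 93.8 per 1000000, with an interval of the log2 ratio from -0.77 to 1.73. A difference of the loading genes was not detectable at this depth. With 2000 variable genes by the vst method, B cells and T and NK cells formed clusters of their own with 8 and 1 Tipe0-/- cells, and the median of the members in lymphocyte-like cells was 0.10.

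T and NK cell markers were lower in Tipe0-/- in epithelial classes too. They summed to 92.9 per 1000000 in WT and 48.7 in Tipe0-/- enterocyte-like cells, and to 36.3 and 13.4 in stem-like cells. In Paneth-like cells the markers went from 45.7 to 6.16. The log2 ratio of the summed members was -0.42 there, in a class where the median of all genes was 0.48. Tuft-like cells were at 295 and 72.7 for the markers, against 7890 and 5346 in the lymphocyte-like cluster. Without that cluster the median log2 ratio of the members was -0.68, as with it. The part of the remaining lymphocyte RNA in the ratios was not tested. *Ifng*, the interferon that T and NK cells secrete, had 8 UMIs in WT and 1 in Tipe0-/-. The interval of its log2 ratio, from -7.80 to 0.57, includes 0. *Ifnb1*, *Ifnl2* and *Ifnl3* had 0 UMIs in both, with intervals that reach up to 0.097 per 1000000 in WT and 0.154 in Tipe0-/-.

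Cell by cell, the summed members were lower at the 10th, the 50th and the 90th percentile of Tipe0-/- cells. Counts were drawn down at random to 3000 UMIs in every cell, and no cell had fewer. The median WT cell held 11 UMIs of the 10 genes and the median Tipe0-/- cell 7. The 10th and 90th percentiles were 4 and 23 in WT and 2 and 15 in Tipe0-/-. In stem-like cells the medians were 10 and 6, and 7.63% of Tipe0-/- cells lay above the WT median, against 41.3% of WT cells. In enterocyte-like cells the medians were 17 and 12, and 30.02% of Tipe0-/- cells lay above the WT median, against 48.5% of WT cells. The libraries therefore overlap widely cell by cell in enterocytes and less in stem cells.

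**Figure D5:**
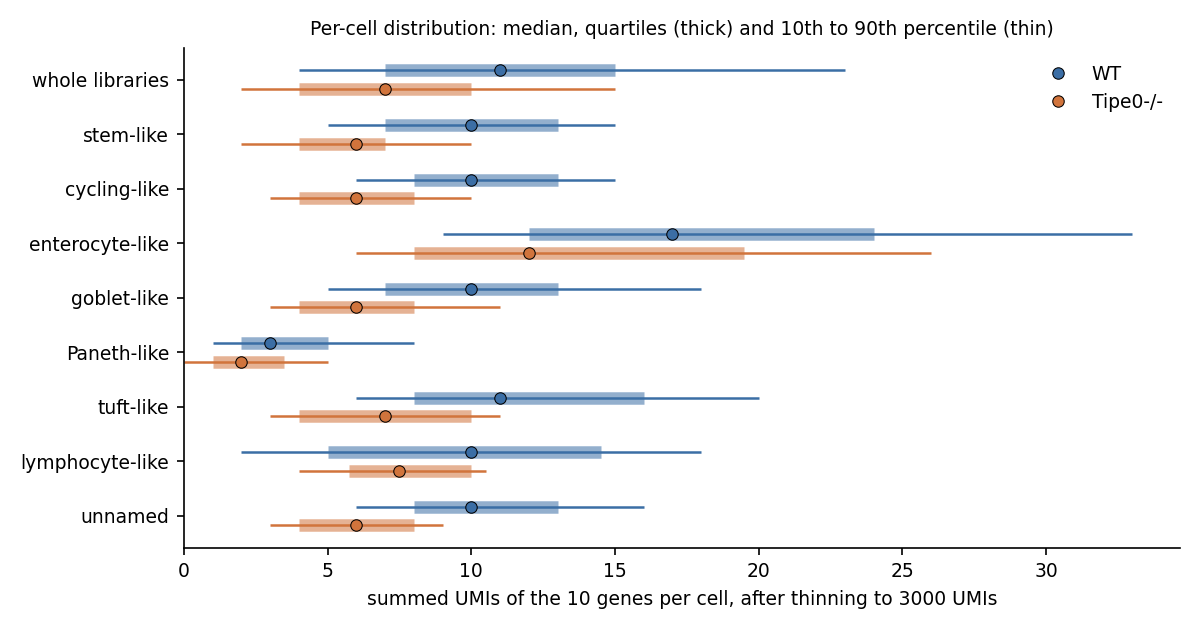
Summed UMIs of the 10 genes per cell after thinning to 3000 UMIs, by library and class. Points are medians, thick lines quartiles and thin lines the 10th to 90th percentile of cells. The Tipe0-/- median is lower in whole libraries (7 against 11) and in each class.

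The share of cells with a UMI was also lower for most members. After thinning, 56.0% of WT cells (54.3 to 57.6%) had a *Psmb8* UMI, compared with 28.4% in Tipe0-/- (26.4 to 30.4%). *H2-D1* was found in 72.2% (70.7 to 73.7%) and 53.1% (50.9 to 55.3%), and *Tap1* in 18.9% (17.6 to 20.2%) and 8.87% (7.66 to 10.2%). *B2m* was near saturation, at 91.1% even in Tipe0-/-. *Tap2* was at 5.41% (4.67 to 6.22%) and 4.84% (3.94 to 5.87%), which do not differ beyond counting error. Without thinning the shares were 81.8% and 60.0% for *Psmb8*, 91.5% and 80.6% for *H2-D1*, and 42.3% and 24.9% for *Tap1*. No cell type in these libraries is known to lack class I, so free RNA in the droplets could not be gauged from these genes, and the shares are not corrected for it. Paneth cell markers, which other types should lack, took 0.026% to 0.18% of the UMIs of the other classes and 9.79% to 10.2% of those of Paneth-like cells.

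None of the 6 other peptide loading genes was 1.5-fold lower. The share over all genes was 5.06%, so a count of 0 in lists as short as those of this paragraph does not set them apart. *Calr*, a chaperone of new heavy chains, had a log2 ratio of -0.43, *Tapbpl* of -0.29 and *Uggt1* of -0.13. *Canx* was at 0.01, *Pdia3* at 0.10 and the peptide trimming enzyme *Erap1* at 0.21. Of the 11 other subunits of the proteasome core none was past the fold, with a median of -0.11 and a range from -0.37 (*Psma7*) to 0.01. The 7 genes of proteasome activators and assembly had a median of -0.14, with 4 below 0, 3 above and none past the fold. The activator genes *Psme1* and *Psme2*, whose products cap the immunoproteasome, were at -0.22 and -0.41, and *Pomp*, a proteasome assembly factor, at -0.32. *Psme4* was at -0.14, whereas *Psme3* was at 0.10, *Psmg2* at 0.17 and *Psmg1* at 0.28. 

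Of the 14 other class I and class I-like heavy chain genes in the tables, 11 had at least 50 UMIs. All 11 were below 0, with a median of -0.47, and 4 were past the fold, against 5.06% of all genes. The 3 with the most UMIs were *H2-Q2* at -0.26 (-0.34 to -0.18), *H2-T23* at -0.24 (-0.34 to -0.15) and *H2-T22* at -0.74 (-0.89 to -0.60). These copies are similar in sequence, so their counts carry the same uncertainty as those of *H2-K1* and *H2-D1*.

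The 7 genes of the RFX, CREB and NF-Y factors, which act with NLRC5 at class I promoters, had a median of 0.25. Of them 5 were above 0, and none was past the fold in either direction. Over all genes 5.06% were past it downward and 8.62% upward. *Rfx5* was at 0.25 (-0.06 to 0.56), *Nfya* at 0.45 (0.26 to 0.65) and *Rfxank* at -0.29 (-0.63 to 0.03). Of the 15 genes of interferon receptors and signalling, 4 were past the fold in the downward direction and none in the upward one. These counts stand beside the same 5.06% and 8.62% of all genes. The transcription factor gene *Irf1* was at -0.60 (-0.70 to -0.50), and the receptor gene *Ifngr2* was at -0.08 (-0.17 to 0.02).

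MHC class II presentation was lower too: all 8 genes of that list were past the fold, against 5.06% of all genes. Their median was -1.30, with *Cd74* at -1.27 and the class II transactivator *Ciita* at -1.26. Its ratio in lymphocyte-like cells was not below 0, with a median of 0.22 over the 5 genes with at least 50 UMIs. That cluster mixes B cells with T and NK cells. By the vst method these were 42 and 29 cells in WT, and 8 and 1 in Tipe0-/-. Makeup and expression can therefore not be told apart there.

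Across the 13 clusters the members did not all vary together. Pearson's correlation of the log2 level of a gene with that of the sum of the other 9 was 0.95 for *B2m*, 0.94 for *H2-D1* and 0.92 for *Tapbp* in WT. It was 0.61 for *Psmb8*, 0.63 for *Psmb9* and 0.50 for *Nlrc5*. In Tipe0-/- it was 0.94 for *B2m* and 0.35 for *Psmb9*. The clusters share a library and its depth, and the sum is led by *B2m*, so these values describe the pattern only. *Nlrc5* had as few as 2 UMIs in a WT cluster, and counting error by itself lowers a correlation.

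Outside the lists, the 5 genes whose level over the 16 combinations of class and library was most like the summed members, among 9767 genes, were *Nampt* (correlation 0.96), *Parp14* (0.96), *Ifi35* (0.94), *Ifi47* (0.93) and *Dtx3l* (0.93). *Parp14* was at 46.4 UMIs per 1000000 in WT and 24.1 in Tipe0-/-, and *Ifi47*, an interferon-inducible GTPase, at 56.8 and 34.3. The 16 points come from the same 2 libraries.

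Enteroendocrine-like cells, which make hormones, formed no cluster of their own in the main grouping. With 2000 variable genes by the vst method they did, with 42 WT and 29 Tipe0-/- cells, and they also did when the libraries were integrated by canonical correlation, where the median of the members was -0.68. The values that follow are from the vst method. *H2-K1* was at 743 per 1000000 in their WT cells (668 to 823), against 364 in Tipe0-/- (311 to 424). *Psmb8* was at 352 (301 to 409) in WT, against 140 (107 to 178). *Psmb10* was at 223 and 214 per 1000000, with overlapping intervals.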

How the data were processed

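Single cells of ileal epithelium were counted on the Chromium System. Raw UMI counts per gene and cell were deposited, not normalized between libraries. The authors made them with Cell Ranger on mm10, per the submitters' processing notes. How reads shared by similar genes were assigned is not given in the sources used here. The labels name collagenase and dispase for digestion, the methods DNase I and Dispase.

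Both libraries were clustered together in Seurat 5.3.0 (R 4.3.3) with 14 principal components and resolution 0.8, leaving out genes of the study's own comparison and the 86 listed genes. Of 582 variable genes 530 were used. Clusters were named from markers. Scrublet in Scanpy 1.11.5 called 15 WT and 3 Tipe0-/- cells as doublets. These few calls were not relied on, no cell was removed, and the 5% with the highest scores were left out as an alternative. UMIs were summed per class and library and set against all UMIs of that class (per 1000000). Intervals are Poisson for sums, binomial for ratios and Clopper-Pearson for shares (scipy 1.17.1), at 95%. No p-value was computed, since each genotype has 1 library. A fold of 1.5 counted as a call, for genes reaching 50 UMIs over both libraries. Of these steps, only the ratio with its interval was tested on simulated counts. Lists of 8 genes or fewer could be named in full, longer ones by their 3 genes with the most UMIs, and 5 further genes by likeness of pattern among those with at least 200 UMIs. The members and lists were chosen with earlier results of these data known. The value of 1 gene that this rule would name is not reported here.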

Additional observations from a re-analysis of the deposited data

How the results depend on the processing

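All 80 alternative values of the 10 whole-library ratios, from 8 alternatives, were below 0 and below the median of all genes under the same alternative. They ran from -1.42 to -0.22, and 27 lay outside the counting interval of the main value. The alternatives were other totals, scaling by the median of all genes, mean log-normalized expression, equal makeup of classes, leaving out the lymphocyte cluster, leaving out high doublet scores, thinning, and no minimum of UMIs. Dropping the minimum leaves each member ratio unchanged by construction. Other totals and scaling by the median shift all genes by a common amount, so a member's distance from that median could not change. The median log2 ratio moved beyond its interval once, to -0.84 with scaling by the median of all genes, which by construction subtracts the shift of 0.15. The number of members past the fold, 5, became 8 with totals that leave out mitochondrial and the 20 most abundant genes (5.70% of all genes), 8 with scaling by the median of all genes (6.90%), 6 with mean log-normalized expression (5.38%), 9 at a ratio of 4 to 5 and 3 at a fold of 2. It was 5 with no minimum of UMIs, where 15.2% of all genes passed. The median of the members was below that of all genes in 8 of 8 classes, and in 8 of 9 with the vst method, where lymphocyte-like cells were the exception. With libraries integrated by canonical correlation it was 9 of 9. These medians of the members include genes under 50 UMIs, which the medians of all genes leave out. The difference in the share of cells with *Nlrc5* was -1.43 percentage points with 1 UMI, and 0.020 with at least 2 UMIs, where 0.03% of WT and 0.05% of Tipe0-/- cells remained. No paired analysis was possible because each genotype has 1 library, and for the same reason no library could be left out. Depth limits *Nlrc5* and *Tap2* in the small classes, where they had under 50 UMIs.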
